A study of Rattus norvegicus with 10 samples.

Results

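The ATF4 programme is the set of genes that cells switch on when amino acids run short or when proteins misfold in the endoplasmic reticulum. Sensor kinases then phosphorylate the translation factor eIF2, most protein synthesis slows, and the mRNA of the transcription factor ATF4 is translated more. ATF4 acts with C/EBP partners on genes that make serine, asparagine and proline, on folate enzymes that carry single carbons, and on transporters that bring amino acids into the cell, and it also induces its own inhibitors. In the heart the programme is known from mitochondrial disease and from growth of the muscle under load.

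The genes described here are 38 members of this programme, named by gene symbol. For each gene the probe set with the highest mean log2 signal over all 10 arrays stood for it, so mean signal, but not the difference between groups, chose the probe set, and the list itself was drawn up with earlier results of these arrays known. A probe set of that symbol was found for 37 members, among 14217 genes named by the annotation, and Pycr1 had none. The brightness filter, which left out the dimmest 40% of probe sets, kept 32 of the 37, and Stc2, Fgf21, Mthfd1l, Cth and Slc7a11 were too dim to be tested.

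Left ventricles of rats were collected 3 days after gene transfer. Samples of the p38 group (n = 5) had received wild-type p38α and MKK3bE, an always-active version of its upstream activator MKK3, and samples of the LacZ group (n = 5) had received the bacterial LacZ gene. The rats weighed 250 to 300 g, and 9 of the 10 are labelled as male Sprague-Dawley. The vector, the promoter that drove the transgenes, the cells that took them up and the age of the rats are not given in the sources used here, and since the labels leave it unsaid whether arrays came from separate animals, the tests weigh group differences against the spread among these samples, which may be technical.

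All values below are log2(signal + 16) after quantile normalization, and groups were compared with limma, two-sided, with Benjamini-Hochberg adjustment over 18625 tested probe sets. A gene passed at an adjusted p of at most 0.05, and each log2 fold change is followed by its standard error. Cardiomyocyte markers marked the tissue, since all 13 with a probe set were tested, and their summed signal ran from 153794 to 161752 on p38 arrays and from 161951 to 164839 on LacZ arrays. The rat probe sets of the delivered kinases did not pass, with log2 fold changes of 0.11 ± 0.07 for Map2k3 (adjusted p = 0.329) and -0.02 ± 0.07 for Mapk14 (adjusted p = 0.836), and they need not measure the delivered cDNA.

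Promoters of 33 members were found in RefSeq's GRCr8 assembly, as windows of 300 bases from 250 before to 50 after the gene's start. The C/EBP-ATF element, the composite site through which ATF4 is known to act, was searched for as TGATGNAA on both strands. It was present in 9 of the 33 members, while 3.98% of all 33469 promoter windows held it. Windows are shown for the 4 passing members that held it and for Nupr1 and Trib3, which did not pass, with matches to TGATGNAA or to the related TGACGNAA, or to their reverse complements, in capitals. TGACGNAA occurred in 1.97% of all windows, and among members in Chac1 and Herpud1 alone.
Chac1 (rose), chr3:126795881-126795980, plus strand: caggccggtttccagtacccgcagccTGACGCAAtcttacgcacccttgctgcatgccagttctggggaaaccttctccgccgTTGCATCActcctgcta
Slc7a1 (rose), chr12:11664388-11664487, plus strand: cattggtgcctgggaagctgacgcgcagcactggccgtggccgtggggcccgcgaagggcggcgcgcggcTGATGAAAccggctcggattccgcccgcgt
Slc38a1 (fell), chr7:129681492-129681591, minus strand: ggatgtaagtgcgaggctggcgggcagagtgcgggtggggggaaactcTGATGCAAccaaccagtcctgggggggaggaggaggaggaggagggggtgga
Herpud1 (fell), chr19:10614838-10614937, minus strand: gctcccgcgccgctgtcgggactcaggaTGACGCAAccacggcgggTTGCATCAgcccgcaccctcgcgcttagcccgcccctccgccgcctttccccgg
Nupr1 (did not pass), chr1:190645902-190646001, minus strand: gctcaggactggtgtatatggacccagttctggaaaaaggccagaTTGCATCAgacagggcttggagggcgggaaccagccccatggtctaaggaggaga
Trib3 (did not pass), chr3:161275534-161275633, minus strand: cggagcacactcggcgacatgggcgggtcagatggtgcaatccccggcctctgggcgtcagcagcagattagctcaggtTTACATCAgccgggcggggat

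Each window is written 5′ to 3′ along the gene and lies upstream of the start that RefSeq's promoter window is built on. For Herpud1 and Slc38a1 this is an internal start, since RefSeq's span of each gene (chr19:10604360-10624168 and chr7:129612414-129681727) reaches beyond the window. Both motifs stood in Chac1, which rose, and in Herpud1, which fell. The other members with a match were Fgf21, Pycr1 and Slc1a4, while the windows of Asns, Psat1 and Mthfd2, the members with the highest folds, held none. A match is a run of letters and was not tested as a binding site.

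In p38 ventricles 10 of the 32 tested members rose, 3 fell and 19 did not pass. Over all 10596 tested genes, with 1 probe set each, 11.6% rose and 6.23% fell, while 8.60% of the tested probe sets rose and 7.40% fell. The counts of members by role below are to be read against the 11.6% and 6.23%. Asparagine synthetase, the serine synthesis enzyme gene Psat1 and the mitochondrial folate enzyme gene Mthfd2 rose by more than the other members, at 2.43-fold, at least 2.12-fold and 2.28-fold. The median log2 fold change of the 32 was 0.33, against 0.00 over all tested genes, and 24 of the 32 were above 0. For 4 members every p38 array lay above every LacZ array and for 1 every p38 array lay below, while 7.40% and 4.74% of all tested genes did so. Psat1 passed the brightness filter only through its p38 arrays. Because the members were listed with earlier results known, these counts describe them and are not independent evidence of a direction.

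**Figure D1:**
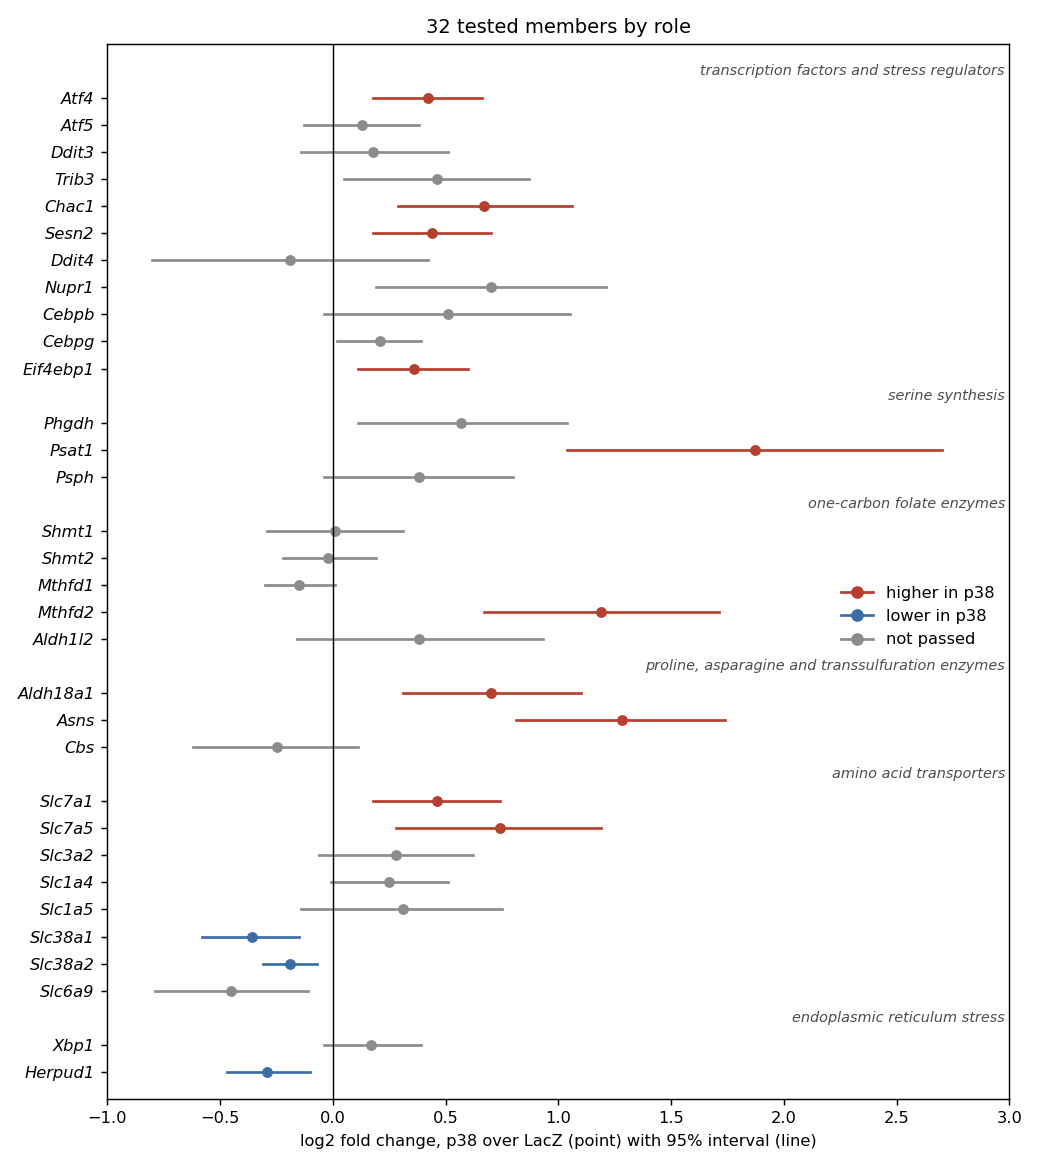
Log2 fold changes of the 32 tested members (p38 over LacZ, horizontal axis), grouped by role, with 95% intervals from 5 p38 and 5 LacZ arrays. The 10 members that rose lie between 0.36 and 1.87, the 3 that fell between -0.36 and -0.19, and the 19 in grey did not pass.

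The regulators are given from ATF4 itself onwards. Atf4 measured 11.51, 11.81, 11.33, 12.04 and 11.74 on p38 arrays 1 to 5, against 11.37, 11.28, 11.19, 11.16 and 11.35 on LacZ arrays 1 to 5. Only p38 3 lay within the range of the LacZ arrays. The rise was 1.34-fold (0.42 ± 0.11 on the log2 scale, adjusted p = 0.0268). These are mRNA levels, and ATF4 is known to be controlled largely at translation, which the arrays do not measure.

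Of 11 tested transcription factors and stress regulators 4 rose and none fell, and 10 of the 11 had a log2 fold change above 0 (median 0.42). Chac1, which encodes an enzyme that breaks down glutathione, measured 6.85, 7.36, 7.38, 7.76 and 7.71 on p38 arrays, against 6.81, 6.36, 6.62, 6.83 and 7.05 on LacZ arrays. Its p38 1 array overlapped the LacZ arrays and the other 4 lay above them, with a rise of 1.60-fold (0.67 ± 0.18, adjusted p = 0.0255). Sesn2, a leucine sensor that restrains the growth kinase TORC1, measured 7.22, 7.52, 7.35, 7.84 and 7.58 on p38 arrays, against 7.20, 6.96, 7.01, 7.04 and 7.09 on LacZ arrays. Those groups did not overlap, although p38 1 and LacZ 1 nearly met, and the rise was 1.36-fold (0.44 ± 0.12, adjusted p = 0.0285). Eif4ebp1, whose product blocks the cap-binding factor of translation, measured 9.74, 10.10, 9.84, 10.28 and 10.09 on p38 arrays, against 9.80, 9.77, 9.40, 9.68 and 9.64 on LacZ arrays. All p38 arrays but p38 1 lay above the LacZ arrays, and the rise was the smallest of the 10, at 1.28-fold (0.36 ± 0.11, adjusted p = 0.0478).

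Several of these calls stood close to the threshold. Atf4 did not pass without any 1 of p38 2, p38 4, p38 5, LacZ 2, LacZ 3 and LacZ 4 (adjusted p from 0.0540 to 0.0679), Sesn2 without any 1 of the same 6 (0.0564 to 0.0741), Chac1 without p38 4, p38 5, LacZ 2 or LacZ 3 (0.0578 to 0.0696), and Eif4ebp1 without any 1 array but p38 1 and p38 3 (0.0643 to 0.121).

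Other well-known regulators of the programme did not pass. Atf5, a related factor of the mitochondrial stress response, measured 10.02, 10.12, 9.61, 9.85 and 9.47 on p38 arrays, against 9.64, 9.83, 9.71, 9.54 and 9.73 on LacZ arrays. The p38 arrays spread to both sides of the LacZ arrays (0.13 ± 0.12, adjusted p = 0.484). Ddit3, the gene of the pro-apoptotic factor CHOP, measured 10.31, 10.48, 10.25, 10.42 and 9.68 on p38 arrays, against 9.69, 10.14, 10.14, 9.94 and 10.32 on LacZ arrays. Here p38 5 lay just below the lowest LacZ array, and the 95% interval of the log2 fold change ran from -0.14 to 0.51 (adjusted p = 0.423). Trib3, a pseudokinase that feeds back on ATF4, measured 6.12, 6.29, 5.99, 6.87 and 6.12 on p38 arrays, against 5.99, 5.88, 6.13, 5.43 and 5.65 on LacZ arrays. Only p38 2 and p38 4 lay above all LacZ arrays (0.46 ± 0.19, adjusted p = 0.112), and its other probe sets, both too dim to be tested, differed by 0.53 and 0.77.

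Nupr1, a small stress-induced nuclear protein gene, lay just outside the threshold, at 8.63, 9.02, 7.97, 8.40 and 8.75 on p38 arrays, against 7.36, 8.33, 7.28, 8.32 and 7.98 on LacZ arrays. Its difference was 0.70 ± 0.24 on the log2 scale (adjusted p = 0.0597), and p38 3 alone lay within the range of the LacZ arrays. The C/EBP factor genes Cebpb (0.51 ± 0.25, adjusted p = 0.183) and Cebpg (0.21 ± 0.09, adjusted p = 0.108), whose products pair with ATF4, did not pass. Without p38 3 Nupr1 (0.84, adjusted p = 0.0236) and Cebpg (0.27, adjusted p = 0.0279) passed. Ddit4, which encodes the TORC1 inhibitor REDD1, was the only regulator below 0, at -0.19 ± 0.28 (adjusted p = 0.671).

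**Figure D2:**
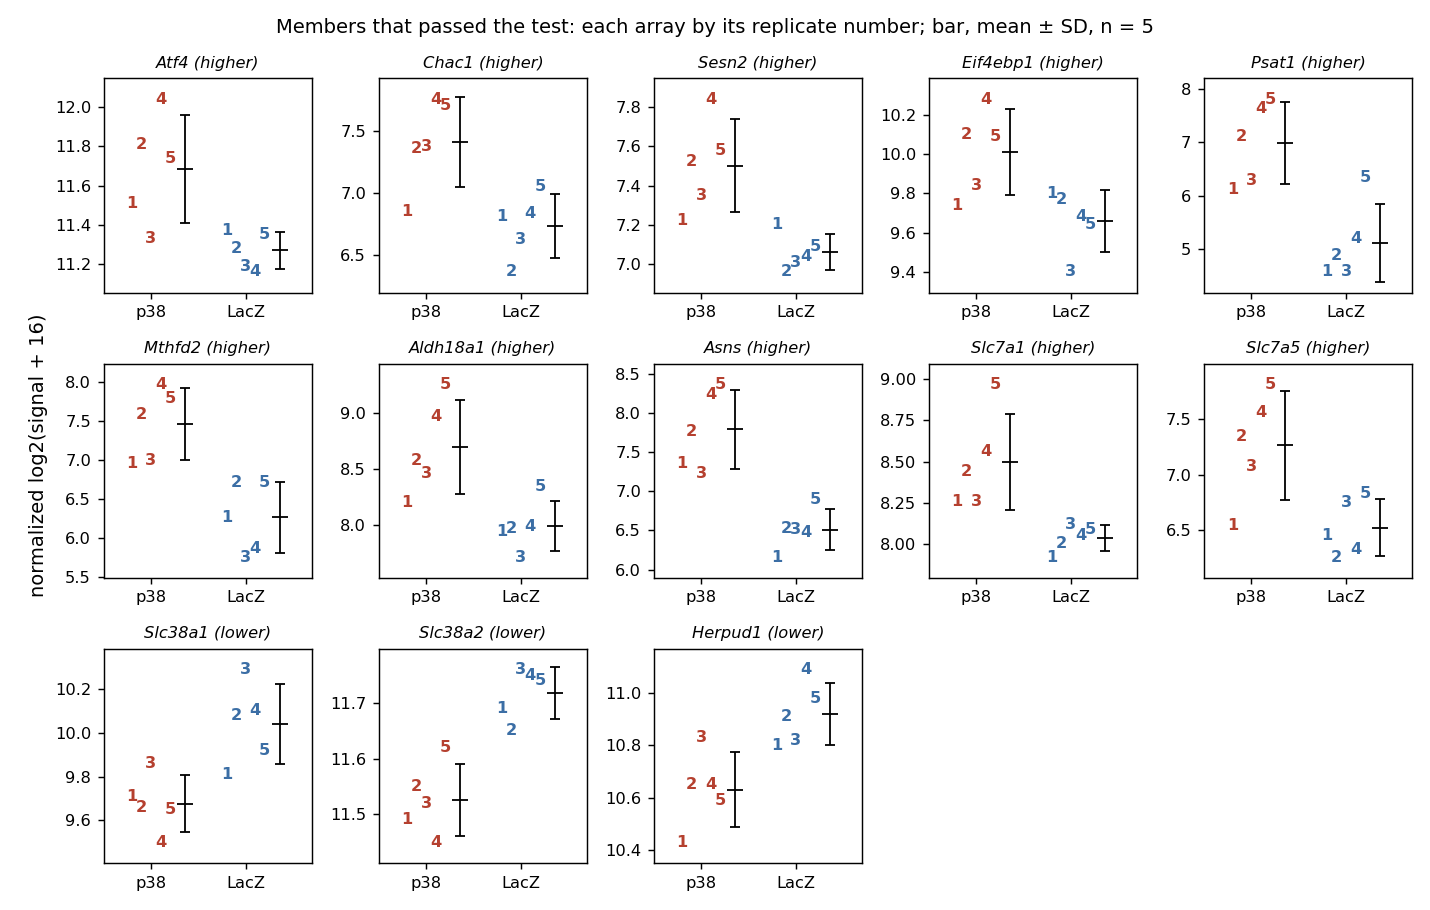
Normalized log2(signal + 16) of the 13 members that passed, each array drawn as its replicate number, p38 (n = 5) left of LacZ (n = 5), with mean ± SD as the black bar. Vertical scales differ between panels and do not start at 0. Of the 10 members that rose, p38 4 is the highest p38 array for 5 and p38 5 for the other 5, and p38 1 is the lowest for 8.

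Serine is made from a glycolytic intermediate in 3 steps, by the enzymes encoded by Phgdh, Psat1 and Psph in that order. Psat1 measured 6.12, 7.11, 6.29, 7.63 and 7.81 on p38 arrays, against 4.58, 4.89, 4.58, 5.21 and 6.34 on LacZ arrays. LacZ 5 stood at the level of p38 1 and p38 3, and the other 4 LacZ arrays lay below every p38 array. The fitted log2 fold change was 1.87 ± 0.38 (adjusted p = 0.0120). Because the LacZ mean lay below the brightness limit of 5.797, LacZ arrays under it were set to it, which gave a rise of at least 2.12-fold. Psat1 cleared the brightness filter through its p38 arrays alone (mean 6.99 on p38 arrays and 5.12 on LacZ arrays), so it had to be higher there, and its p supports nothing by itself. It is the only tested member of that kind, and without it 9 members rose.

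The enzymes on either side of Psat1 did not pass, although the call of Phgdh depended on the fit. Phgdh, the first and committed step, measured 6.08, 6.72, 6.50, 7.41 and 7.13 on p38 arrays, against 6.27, 6.18, 6.44, 6.15 and 5.92 on LacZ arrays. All p38 arrays but p38 1 lay above the LacZ arrays (0.57 ± 0.22, adjusted p = 0.0850). Phgdh passed with the fluidics status of the arrays, described below, as a block (0.83, adjusted p = 0.00803). It also passed within arrays of Completed status (1.01, adjusted p = 0.00106) and without p38 1 (0.75, adjusted p = 0.0139). Within fluidics module 1, with 1 p38 array, its log2 fold change was 1.31. Psph, the final phosphatase, measured 6.85, 6.98, 7.19, 7.34 and 6.73 on p38 arrays, against 7.01, 6.88, 5.92, 6.81 and 6.57 on LacZ arrays. Only p38 3 and p38 4 lay above all LacZ arrays, and LacZ 3 and LacZ 5 lay below all p38 arrays (0.38 ± 0.19, adjusted p = 0.191).

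The folate enzymes take the carbon that serine gives up when it is split to glycine, in the cytosol or in the mitochondrion. Of 5 tested, Mthfd2 alone rose and none fell. Mthfd2, a mitochondrial dehydrogenase known to be low in most adult tissues and high in dividing cells, measured 6.96, 7.58, 7.0, 7.97 and 7.79 on p38 arrays, against 6.27, 6.72, 5.76, 5.87 and 6.71 on LacZ arrays. Every p38 array lay above every LacZ array, and the rise was 2.28-fold (1.19 ± 0.24, adjusted p = 0.0118). Shmt2, the mitochondrial enzyme that splits serine, had a log2 fold change of -0.02 with a 95% interval from -0.22 to 0.19, and its cytosolic counterpart Shmt1 one of 0.01, from -0.29 to 0.31. Mthfd1, the cytosolic enzyme of the same carbon transfers, stood at -0.15 (interval -0.30 to 0.01, adjusted p = 0.168). Aldh1l2, a mitochondrial dehydrogenase that oxidises formyl-folate, stood at 0.38 ± 0.25 on the log2 scale (adjusted p = 0.308), with LacZ 5 at 7.92 above 4 of the 5 p38 arrays.

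Asns makes asparagine from aspartate and glutamine and is among the best known ATF4 targets. Asns measured 7.36, 7.77, 7.23, 8.24 and 8.37 on p38 arrays, against 6.16, 6.52, 6.51, 6.47 and 6.90 on LacZ arrays. The groups did not overlap, and LacZ 5 was the highest LacZ array. The rise was 2.43-fold (1.28 ± 0.22), with the smallest adjusted p of all members, 0.00774. Aldh18a1, which starts proline synthesis from glutamate, measured 8.20, 8.58, 8.46, 8.97 and 9.26 on p38 arrays, against 7.94, 7.97, 7.71, 7.98 and 8.34 on LacZ arrays. LacZ 5 lay above p38 1 and below the other p38 arrays, and the rise was 1.63-fold (0.70 ± 0.18, adjusted p = 0.0236). Cbs, the first enzyme of the path from homocysteine to cysteine, did not pass (-0.25 ± 0.17, adjusted p = 0.310). Asns and Mthfd2 passed without any 1 array, with adjusted p no higher than 0.0272 and 0.0362. Aldh18a1 did not pass without p38 4, LacZ 1, LacZ 2 or LacZ 3 (0.0513 to 0.0647). Psat1 also passed without any 1 array (adjusted p no higher than 0.0384), but it cleared the brightness filter through its p38 arrays alone. These p values of Psat1 therefore support nothing by themselves.

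Among 8 tested transporters 2 rose and 2 fell. Slc7a5, the light chain of the exchanger that imports leucine and other large neutral amino acids, measured 6.54, 7.34, 7.07, 7.56 and 7.81 on p38 arrays, against 6.45, 6.26, 6.75, 6.33 and 6.83 on LacZ arrays. All p38 arrays but p38 1 lay above the LacZ arrays, and the rise was 1.67-fold (0.74 ± 0.21, adjusted p = 0.0342). Slc3a2, the heavy chain that carries Slc7a5 to the membrane, measured 9.22, 9.82, 9.47, 10.07 and 10.10 on p38 arrays, against 9.54, 9.35, 9.28, 9.47 and 9.64 on LacZ arrays. Here p38 2, p38 4 and p38 5 were above the LacZ arrays and p38 1 below them (0.28 ± 0.16, adjusted p = 0.230), and without p38 1 Slc3a2 passed (0.41, adjusted p = 0.0360). Slc7a1, the main importer of arginine and lysine, measured 8.26, 8.44, 8.26, 8.56 and 8.97 on p38 arrays, against 7.92, 8.0, 8.12, 8.05 and 8.09 on LacZ arrays. Its groups did not overlap, and the rise was 1.38-fold (0.46 ± 0.13, adjusted p = 0.0316), while a dimmer probe set of Slc7a1 did not pass (0.32 ± 0.13, adjusted p = 0.110), another, too dim to be tested, differed by -0.14, and the mean of its probe sets did not pass (0.22, adjusted p = 0.324). Slc7a5 did not pass without any 1 array but p38 1, p38 3 and LacZ 5 (0.0573 to 0.0910), nor Slc7a1 without any 1 of p38 2, p38 4 and LacZ 1 to 4 (0.0577 to 0.0753).

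The transporters that fell were sodium-coupled carriers of glutamine and other small neutral amino acids. Slc38a2, which cells deprived of amino acids are known to induce, measured 11.49, 11.55, 11.52, 11.45 and 11.62 on p38 arrays, against 11.69, 11.65, 11.76, 11.75 and 11.74 on LacZ arrays. Every p38 array lay below every LacZ array, by a small margin (-0.19 ± 0.06, adjusted p = 0.0331). Slc38a1 measured 9.71, 9.66, 9.86, 9.50 and 9.65 on p38 arrays, against 9.81, 10.08, 10.29, 10.10 and 9.92 on LacZ arrays. Only p38 3 overlapped the LacZ arrays (-0.36 ± 0.10, adjusted p = 0.0294). The probe sets of Slc38a1 disagreed, since the 2 dimmer ones stood at 0.21 ± 0.14 (adjusted p = 0.326) and 0.14 ± 0.16 (adjusted p = 0.579). Slc6a9, a glycine transporter, stood just outside the threshold at -0.45 ± 0.16 (adjusted p = 0.0646), and passed without p38 3 (-0.52, adjusted p = 0.0402) or LacZ 4 (-0.56, adjusted p = 0.0359). Slc1a4 (0.25 ± 0.12, adjusted p = 0.165) and Slc1a5 (0.31 ± 0.21, adjusted p = 0.312), exchangers of small neutral amino acids such as serine and glutamine, did not pass.

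Xbp1 and Herpud1 belong to the endoplasmic reticulum side of the stress response. Herpud1, which helps to hand misfolded proteins to degradation, measured 10.43, 10.65, 10.83, 10.65 and 10.59 on p38 arrays, against 10.80, 10.91, 10.82, 11.09 and 10.98 on LacZ arrays. All p38 arrays but p38 3 lay below the LacZ arrays, and its log2 fold change was -0.29 ± 0.09 (adjusted p = 0.0388). Xbp1, a transcription factor whose mRNA is spliced under such stress, measured 10.87, 11.19, 11.19, 11.19 and 11.45 on p38 arrays, against 11.06, 11.06, 10.81, 11.14 and 10.95 on LacZ arrays. All p38 arrays but p38 1 lay slightly above the LacZ arrays (0.17 ± 0.10, adjusted p = 0.240), it passed without p38 1 (0.25, adjusted p = 0.0473), and these values do not separate spliced from unspliced mRNA. The endoplasmic reticulum stress element, searched for on both strands as CCAAT and CCACG with any 9 bases between them, was in 0.0657% of all promoter windows and, among the members, in that of Xbp1.

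The 3 falls depended on how the arrays were scaled. With the signals as deposited, which moved the median of all tested probe sets to 0.11 where quantile normalization gave -0.03, Slc38a1 stood at -0.19 (adjusted p = 0.391), Slc38a2 at -0.07 (0.769) and Herpud1 at -0.13 (0.649), and with each array centred on its median they also did not pass (0.0664, 0.124 and 0.168). Slc38a1 did not pass without p38 2, p38 4, p38 5, LacZ 2, LacZ 3 or LacZ 4 (0.0555 to 0.0779), Slc38a2 without any 1 array but p38 1, p38 3 and p38 5 (0.0525 to 0.0801), and Herpud1 without any 1 array but p38 3 (0.0503 to 0.0893).

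**Figure D3:**
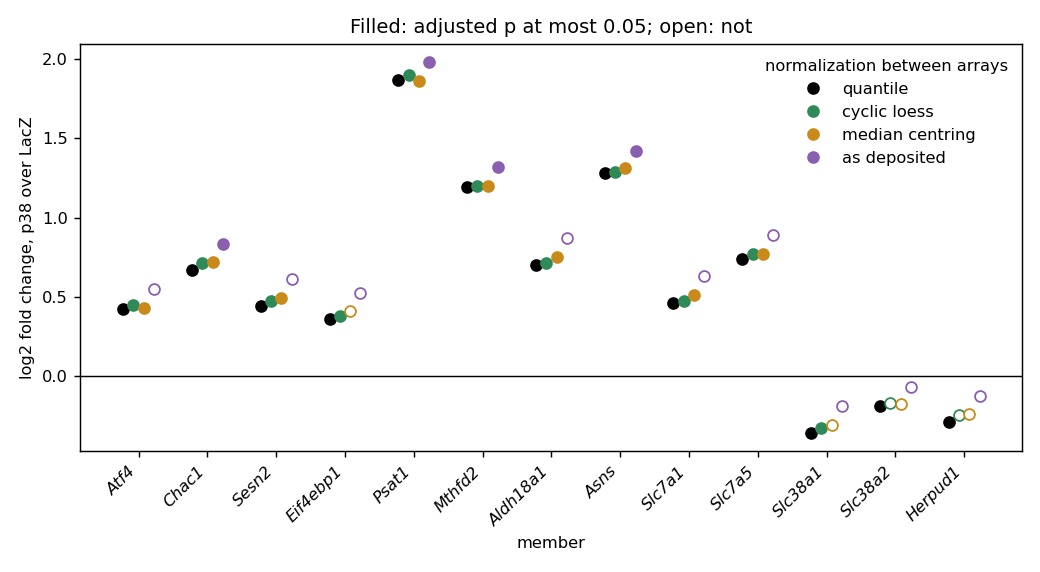
Log2 fold changes (p38 over LacZ, vertical axis) of the 13 members that passed, under 4 ways of scaling the arrays; filled points have an adjusted p of at most 0.05. No member changes sign, and with the signals as deposited Chac1, Psat1, Mthfd2 and Asns pass.

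Of the 5 members too dim to be tested, Stc2 and Fgf21 encode secreted stress hormones, and no change of theirs is given as a result. Stc2 averaged 5.76 ± 0.37 on p38 arrays and 5.31 ± 0.49 on LacZ arrays, and Fgf21 averaged 4.86 ± 0.54 on p38 arrays and 4.87 ± 0.47 on LacZ arrays (SD, n = 5 each). Slc7a11, the cystine importer, measured 5.93, 5.44, 5.36, 5.71 and 6.09 on p38 arrays, against 5.32, 5.46, 5.77, 5.12 and 5.50 on LacZ arrays, so that most arrays lay below the brightness limit. Mthfd1l, a mitochondrial enzyme that releases formate, averaged 6.0 ± 0.34 on p38 arrays and 5.48 ± 0.29 on LacZ arrays, and Cth, which completes cysteine synthesis, 5.43 ± 0.46 on p38 arrays and 5.25 ± 0.38 on LacZ arrays (SD, n = 5 each).

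**Figure D4:**
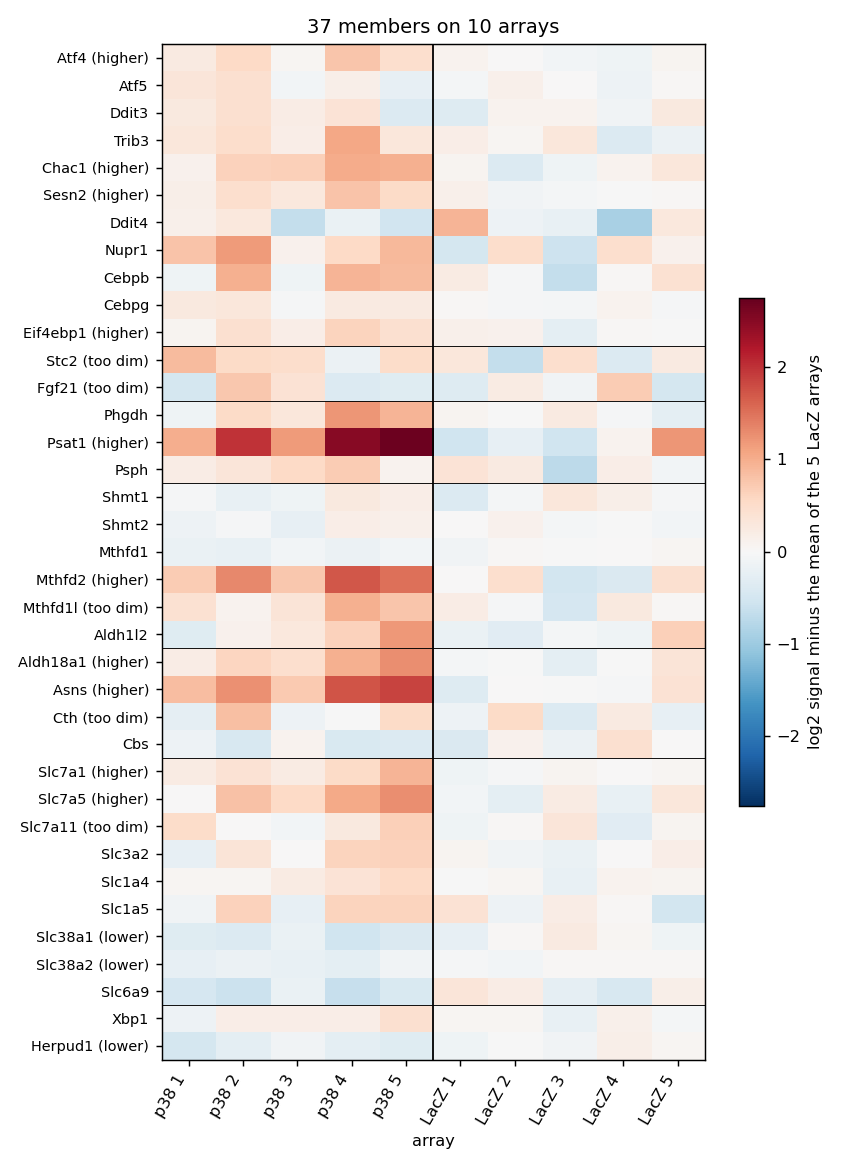
Log2 signal of the 37 members with a probe set (rows, by role) on the 10 arrays (columns, p38 left of LacZ), as the difference from the mean of the 5 LacZ arrays. Asns, Psat1 and Mthfd2 stand out as red rows, deepest on p38 2, p38 4 and p38 5, and Psat1 is also raised on LacZ 5.

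The p38 arrays were unequal in this programme. The mean deviation of the 10 members that rose from their LacZ means was 0.36, 0.84, 0.50, 1.17 and 1.2 on p38 arrays 1 to 5, against -0.07, -0.04, -0.15, -0.06 and 0.32 on LacZ arrays 1 to 5. LacZ 5 thus came close to p38 1, and it was the highest LacZ array for 5 of the 10 members. The 10 were chosen for being higher on these same p38 arrays. Over all 32 tested members the mean deviations were 0.09, 0.39, 0.16, 0.54 and 0.51 on p38 arrays. On LacZ arrays they were -0.01, 0.01, -0.11, -0.02 and 0.13, so that LacZ 5 lay above p38 1. Without LacZ 5, 9 members rose and 1 fell, and without p38 1, 13 rose and 2 fell. The number of rises was 5 without p38 2, p38 5 or LacZ 4, 6 without LacZ 1, and 3 without p38 4, LacZ 2 or LacZ 3. Rises over all tested probe sets, 1601 with every array kept, moved in the same directions. They numbered 2316 without p38 1, 693 without p38 4, 923 without LacZ 2 and 750 without LacZ 3, so these shifts in count are not particular to the members.

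Markers of macrophages and of proliferation followed the same order over the p38 arrays as the 10 members that rose. In each of these sets p38 4 and p38 5 nearly tied, and over all 32 tested members p38 4 stood above p38 5 (0.54 and 0.51). Both marker lists were also highest on LacZ 5 among the LacZ arrays, while the order of LacZ 1 to 4 differed. The 16 tested macrophage and monocyte markers had mean deviations of 0.17, 0.82, 0.61, 1.25 and 1.27 on p38 arrays, against -0.15, -0.11, 0.00, -0.12 and 0.38 on LacZ arrays. Their summed signal ran from 15780 to 31785 on p38 arrays and from 12245 to 17678 on LacZ arrays, and 13 of the 16 rose. Over all tested genes 11.6% rose and 6.23% fell, and every marker count in this paragraph is to be read against these shares. The 10 proliferation markers stood at 0.76, 1.46, 0.82, 1.91 and 1.93 on p38 arrays, against -0.17, -0.29, -0.11, -0.17 and 0.73 on LacZ arrays, and 8 of them rose. Their summed signal ran from 1226 to 3033 on p38 arrays and from 539 to 1192 on LacZ arrays. Ccna2, among the 8, cleared the brightness filter through its p38 arrays alone (mean 7.64 on p38 arrays and 5.59 on LacZ arrays). Birc5, which did not pass, cleared it the same way (mean 6.46 on p38 arrays and 5.57 on LacZ arrays). Both therefore had to be higher on p38 arrays, and both are part of the means and sums of this list. The part of these cells in the rises of Asns, Psat1, Mthfd2 and the other members was not tested, and in whole tissue more cells of a type and more RNA per cell cannot be told apart. The mean deviation of the cardiomyocyte markers lay between -0.11 and -0.02 on p38 arrays and between -0.01 and 0.01 on LacZ arrays, and 2 of the 13 fell. Among 12 fibroblast markers 1 rose and none fell, with mean deviations of -0.17, 0.15, 0.27, 0.32 and 0.66 on p38 arrays, against 0.06, -0.25, 0.04, -0.14 and 0.29 on LacZ arrays, so that p38 1 was the lowest p38 array and LacZ 5 the highest LacZ array here too. Among 9 endothelial markers none rose and 2 fell, with mean deviations from -0.30 to -0.08 on p38 arrays and from -0.05 to 0.05 on LacZ arrays. Of 5 neutrophil markers with a probe set 2 were tested and 1, Lcn2, rose, with mean deviations of 1.08, 1.95, 0.32, 1.86 and 0.72 on p38 arrays, against -0.24, -0.18, -1.19, 0.18 and 1.43 on LacZ arrays. Of 3 red cell markers with a probe set 2 fell, with mean deviations from -1.47 to -0.26 on p38 arrays and from -0.24 to 0.46 on LacZ arrays. Neither of these last lists kept the order of the 10 members that rose over the p38 arrays, and the part of any of these cells was not tested.

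**Figure D5:**
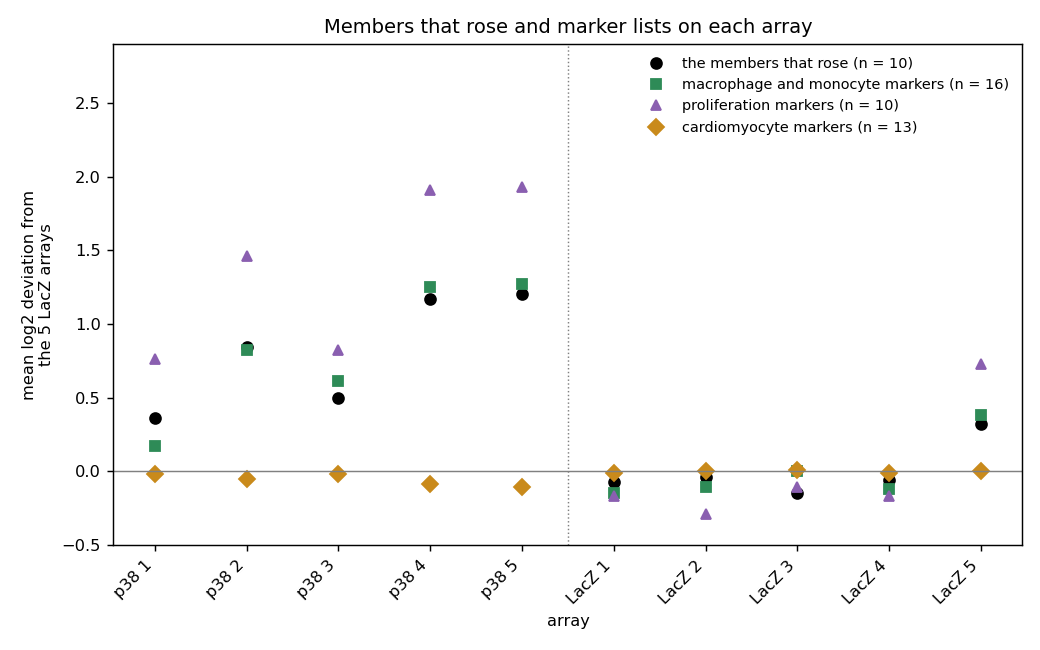
Mean log2 deviation from the 5 LacZ arrays (vertical axis) on each array, p38 left of LacZ, for the 10 members that rose and for 3 marker lists. The members, the macrophage markers and the proliferation markers are highest on p38 4 and p38 5, lower on p38 1 and p38 3, and raised on LacZ 5 among the LacZ arrays, while cardiomyocyte markers stay between -0.11 and 0.01.

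The experiment files record a status of the fluidics station for each array, Completed for p38 4, p38 5 and LacZ 1 to 4, and Started for p38 1 to 3 and LacZ 5. The 10 members that rose had log2 fold changes above 0 within both kinds of array. Within Completed arrays they lay between 0.52 and 2.91, with a median of 1.15, and within Started arrays, where LacZ 5 is the only LacZ array, between 0.07 and 0.55, with a median of 0.21. Within Completed arrays 17 members rose, where 3084 of the 18625 tested probe sets rose and 3638 fell, so the higher count is not particular to the members. With the status as a block 12 members rose and 3 fell, where 1944 of the tested probe sets rose and 1955 fell. The 10 rises then lay between 0.43 and 1.92, and Phgdh and Slc1a5 (0.53, adjusted p = 0.0495) joined them. With the module as a block Eif4ebp1 (adjusted p = 0.0622), Slc7a1 (0.0740), Slc38a2 (0.0717) and Herpud1 (0.0544) did not pass. Within fluidics module 1, with 1 p38 array, and module 2, with 1 LacZ array, the fold changes of the 10 ran from 0.55 to 2.17 and from 0.15 to 2.08, where the lone array is assumed to vary like the others. They were also above 0 in the untested differences of modules 3 and 4, with 1 array of each group (0.31 to 2.53 and 0.16 to 1.13). The 10 were chosen for being higher over these same arrays, so their sign within batches is a description.

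Further genes of the pathway came from 7 lists with 134 members, of which 108 were tested, 25 rose and 9 fell, with a median log2 fold change of 0.12, where 11.6% of all tested genes rose and 6.23% fell. The counts of the single lists below are to be read against the same shares. With the signals as deposited 14 of these genes rose and 0 fell, where 960 of all tested probe sets rose and 87 fell. The falls named below from these lists therefore did not pass under that scaling. Among the 25, Fosl1 and Arg1 passed the brightness filter only through their p38 arrays. Upstream of ATF4, none of the 4 kinases that phosphorylate eIF2 passed, with log2 fold changes of -0.17 ± 0.09 for Eif2ak1, 0.00 ± 0.11 for Eif2ak2, -0.09 ± 0.11 for Eif2ak3 and 0.09 ± 0.13 for Eif2ak4. Of the 17 tested genes of these kinases, of eIF2 and eIF2B and of the phosphatases, 5 rose and none fell. Eif2b3, a subunit of the factor that recharges eIF2, rose by 0.40 ± 0.08 on the log2 scale (adjusted p = 0.0123). Ppp1r15a, known as GADD34, guides a phosphatase to eIF2 and is itself an ATF4 target, and it rose 1.40-fold (0.49 ± 0.11, adjusted p = 0.0142). Dnajc3, an inhibitor of the kinase PERK, rose 1.58-fold (adjusted p = 0.0170).

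Among 23 tested sensors and chaperones of the unfolded protein response, 4 rose and none fell, with a median of 0.28, where 11.6% of all tested genes rose. Derl2, a channel component of protein degradation from the endoplasmic reticulum, rose 1.52-fold (0.60 ± 0.11, adjusted p = 0.00930), the chaperone-associated gene Creld2 1.83-fold (0.87 ± 0.22, adjusted p = 0.0223), and the co-chaperone gene Dnajb11 1.43-fold (0.51 ± 0.13, adjusted p = 0.0250). Hspa5, which encodes the main chaperone BiP, did not pass (0.43 ± 0.15, adjusted p = 0.0634). Herpud1, a target of the same response, fell, as described above.

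Of 12 tested bZIP factors that can pair with ATF4 or resemble it, 7 rose and none fell, with a median of 0.60. Atf3, which ATF4 is known to induce, averaged 9.19 ± 0.78 on p38 arrays and 6.52 ± 0.16 on LacZ arrays (SD, n = 5 each) and rose 6.36-fold (adjusted p = 0.00344). Fos rose 3.61-fold (1.85 ± 0.32, adjusted p = 0.00802) and Fosl1 at least 3.00-fold (adjusted p = 0.0118), both partners of JUN in AP-1. Genes of this kind are also known to respond to kinase signalling without ATF4. Fosl1, like Psat1, cleared the brightness filter through its p38 arrays alone (mean 7.40 on p38 arrays and 5.60 on LacZ arrays). It therefore had to be higher there, and its p supports nothing by itself.

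Enzymes around the members moved both ways. Among 13 tested enzymes of further amino acid synthesis and exchange, 4 rose and 4 fell. Ass1 and Arg1, which make and cleave arginine, rose 2.77-fold (1.47 ± 0.30, adjusted p = 0.0123) and at least 2.48-fold (adjusted p = 0.0161), and Odc1, the entry to polyamine synthesis, rose 1.21-fold (adjusted p = 0.0259). Arg1 is also known as a macrophage gene. Its LacZ mean of 5.79 lay just below the brightness limit, so Arg1 cleared the filter through its p38 arrays alone (mean 7.20). Its p therefore supports nothing by itself. Of the transaminases that exchange nitrogen with glutamate, Got1, Got2 and Gpt fell, with log2 fold changes of -0.41 ± 0.07 for Got1 (adjusted p = 0.00911), -0.26 ± 0.06 for Got2 (adjusted p = 0.0141) and -0.57 ± 0.15 for Gpt (adjusted p = 0.0266), while Gpt2 (0.21 ± 0.13, adjusted p = 0.267) and Oat (0.07 ± 0.08, adjusted p = 0.586) did not pass, and the member Psat1, also a transaminase, was higher. Of 13 further folate, methionine and glutathione enzymes 3 rose, and Dld, a subunit shared by the glycine cleavage and pyruvate dehydrogenase complexes, fell (-0.33 ± 0.08, adjusted p = 0.0181). Ahcy, which clears the by-product of methylation, rose 1.47-fold (adjusted p = 0.0201), Gss, the last enzyme of glutathione synthesis, 1.53-fold (adjusted p = 0.0282), and Gclc, its first, 1.39-fold (adjusted p = 0.0462).

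Of 14 tested further amino acid transporters 1 rose and 2 fell. Slc1a3, a glutamate importer, rose 1.67-fold (0.74 ± 0.22, adjusted p = 0.0372). The creatine transporter gene Slc6a8 (-0.51 ± 0.10, adjusted p = 0.00993) and the glutamine transporter gene Slc38a3 (-0.43 ± 0.10, adjusted p = 0.0150) fell, and Slc38a3 is of the same family as Slc38a1 and Slc38a2.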

How the data were processed

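Gene expression was measured on 10 short-oligonucleotide arrays, 5 p38 and 5 LacZ, grouped by sample title. The authors deposited 1 linear intensity per probe set and array, made with GCOS 1.2, per the submitters' processing notes; the sources used here do not give a scaling target, and array medians ran from 60.5 to 88.5. The other deposited value used, the module number and status of the fluidics station, came per the file headers. No depth applies to arrays, and their number limits precision: 95% intervals spanned 0.28 on each side (median, log2).

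Intensities were taken as log2(signal + 16), which understates changes of dim genes, and quantile normalized over 31042 probe sets without the 57 controls. The dimmest 40% by mean were left out (limit 5.797, a signal of 39.6), leaving 18625. Genes were named from platform annotation, where 20832 probe sets carried 1 symbol, 436 several and 9831 none. The group test was limma 3.58.1 (R 4.3.3), with an intensity trend and no covariate, and the steps were tested on simulated data. Alternatives changed the normalization, pseudocount, filter, threshold, probe set, array weights, blocks and arrays included. Where a group mean lay below the limit, the arrays under it took its value, and the fold is a lower bound.

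Members and gene lists were chosen with earlier results of these data known. Values on each array were given for members that passed and for 13 members of a set list, and for Nupr1, chosen after its values were seen. Of each further list at most 3 passing genes per direction, by the smallest p, were named. Hspa5 and the kinases of eIF2 were added for their roles, and Gpt2 and Oat as further transaminases. Promoter windows are RefSeq's, of GRCr8, whose coordinates are used for these sequences only.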

Additional observations from a re-analysis of the deposited data

Results flagged for a closer look

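In 4 of 74 groups of 5 arrays 1 array stood far from the other 4, by Dixon's test at its 95% level, and chance alone marks about 1 group in 20. Ddit3 measured 9.68 on p38 5, against 10.25 to 10.48 on the other p38 arrays. Cebpg measured 9.01 on p38 3, where the other p38 arrays had 9.29 to 9.37. For Mthfd1, LacZ 1 had 9.58 beside 9.68 to 9.73 on the other LacZ arrays. For Aldh1l2, LacZ 5 had 7.92 beside 6.96 to 7.20. None of these genes passed the test. Without p38 3 Cebpg passed, and the other 3 did not pass without the array named.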

How the results depend on the processing

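Settings that changed a count by over 1.5 times are given here. Members that rose numbered 4 with signals as deposited, 6 with no filter, 6 without the dimmest 60% (fewer members tested), 17 and 0 within Completed and Started arrays, 5 and 0 within modules 1 and 2, and 1 at an adjusted p of 0.01. Members that fell numbered 0 with signals as deposited, median centring, Started arrays, either module and the 0.01 threshold, and 1 with cyclic loess, no filter, no intensity trend or the module as a block. Related genes that rose numbered 14 with signals as deposited, 38 with array weights, 42 and 0 within Completed and Started arrays, 0 within module 2 and 3 at 0.01. Related genes that fell numbered 0, 19, 0 and 0 with signals as deposited and within Completed, Started and module 2 arrays, 14 at a threshold of 0.1 and 2 at 0.01. Of all probe sets, 1601 rose and 1378 fell. These became 960 and 87 with signals as deposited, 2618 and 2577 with array weights, 1031 and 652 with probe sets averaged by gene, 3084 and 3638 within Completed, 2 and 3 within Started and 3 and 0 within module 2, and the falls became 776 with median centring and 865 with no filter. Leaving out 1 array gave 3 to 13 rises and 0 to 4 falls among members, 10 to 38 and 5 to 12 among related genes, and 693 to 2316 and 536 to 2149 over all probe sets. Falls among members numbered 0 without p38 2, p38 4, LacZ 2 or LacZ 3, 1 without p38 5, LacZ 1, LacZ 4 or LacZ 5, 2 without p38 1 and 4 without p38 3. Causes were not tested.

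Members that changed sign in log2 fold change were Slc38a1, which had passed, and others that had not. With signals as deposited Shmt2 stood at 0.16 and Mthfd1 at 0.02, and Shmt2 at 0.04 with median centring, 0.01 with loess and 0.07 with the status as a block. With array weights Ddit4 stood at 0.01 and Shmt1 at -0.06. Leaving out 1 array put Shmt1 at -0.08 to 0.09, Shmt2 at -0.07 to 0.04 and Ddit4 at -0.41 to 0.05. Within Completed arrays Atf5 stood at -0.02 and Shmt2 at 0.14, within Started arrays Cebpb at -0.17, Shmt1 at -0.08, Aldh1l2 at -0.63 and Slc3a2 at -0.14, within module 1 Shmt2 at 0.21, and within module 2 Atf5 and Psph at -0.09 and Ddit3 at -0.14. The dimmest probe set put Slc38a1 at 0.14. Asns kept its call and direction in all 25 settings counted, Mthfd2 in all 24 and Psat1 in all 23. Settings counted leave out the within-batch and threshold ones, and those in which the gene was not tested. Leaving out the dimmest 60% was such a setting for Psat1 and Mthfd2. Psat1 cleared the brightness filter through its p38 arrays alone, so its count supports nothing by itself.

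Deviations of same-numbered arrays correlated at -0.13 to 0.28, and 2 of 5 p38 arrays correlated best with their own number. These values cannot decide whether arrays of the same number were handled as pairs, and the main fit did not pair them. With the replicate block 11 members rose and 2 fell, and 31 and 10 related genes. Over all tested probe sets 1670 then rose and 1410 fell, against 1601 and 1378 in the main fit.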

Other observations

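TORC1, the growth kinase that amino acids switch on, lies next to the ATF4 programme, and 16 of its 17 listed genes were tested. Of these 1 rose and 2 fell, with a median log2 fold change of -0.14. Sesn3, a sestrin related to Sesn2, averaged 6.50 ± 0.28 on p38 arrays and 5.80 ± 0.33 on LacZ arrays (SD, n = 5 each) and rose 1.63-fold (limma, adjusted p = 0.0247). The LacZ mean of Sesn3 stood at the brightness limit of 5.797, with LacZ 3 (5.74) and LacZ 4 (5.26) below it, so the size of its rise is uncertain. Sesn1, the remaining sestrin, averaged 9.52 ± 0.31 on p38 arrays and 10.06 ± 0.17 on LacZ arrays (SD, n = 5 each) and fell (-0.54 ± 0.14, limma, adjusted p = 0.0223). Sesn2 and Sesn3 thus were higher and Sesn1 lower on p38 arrays. Deptor, an inhibitor bound to the TOR kinase, fell as well (-0.42 ± 0.11, limma, adjusted p = 0.0263).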
